A study of Nicotiana tabacum with 20 samples.

Results

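Leaf RNA of tobacco plants of hairpin line 1 in the T2 generation (HP1_T2) was compared with leaf RNA of plants carrying the empty vector (C). The members of the comparison were fixed by their labels: 4 HP1_T2 libraries and 4 C libraries, 8 of the 20 in the series, with all 24069 sequences of the deposited tables as features. HP1_T2 plants carried a transgene in which the 35S promoter drives a sense fragment of the Tnt1 reverse transcriptase, an intron and the antisense fragment, ended by the OCS terminator, together with hygromycin resistance and the GUS reporter. Per the labels they came from self-pollination of the T1 plants of the line (HP1_T1), which are described as regenerants, and HP1_T1 carried the same transgene. C plants carried the promoter, intron and terminator without Tnt1 fragments, with hygromycin resistance but without GUS, and are described as regenerants too. Untransformed wild type (WT) and T1 plants of a second hairpin line (HP8_T1), 4 libraries each, served as reference levels together with HP1_T1. Plants were kept in vitro at 24 °C with a 14 h day and sampled at an age of 45 days. The hairpin, the GUS reporter, passage through seed and the transformation line all differ between HP1_T2 and C, and cannot be told apart here. The labels name 1 line for HP1_T2 and none for C, and leave it unsaid if each of a group's 4 libraries is a plant of its own; the p-values thus rest on the spread between libraries, which can be technical.

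Tnt1 is a retrotransposon of tobacco that is flanked by long terminal repeats and moves by copying its RNA into DNA with its own reverse transcriptase. A transcript that folds into a hairpin is cut by Dicer-like enzymes into small RNAs, which guide the silencing of matching RNA or DNA. Self-pollination lets a transgene segregate and passes the genome through meiosis and seed. What the comparison addresses is which differences from empty-vector plants were present after that step. The features are UniGene sequences, which the files do not pair with gene names, and 0 of the identifiers matched the reference table of 79372 tobacco genes. Tnt1 itself, the transgene, gene families and markers of leaf cell types could therefore not be looked up, and 2 features that were higher and 2 that were lower are given by identifier, with others given by rank and length.

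Total gene reads ranged from 1958952 to 2734037 over the 8 libraries. Most of them fell on 1 feature, so that 418585 to 495156 reads per HP1_T2 library and 199341 to 293708 per C library were left for everything else. Of the 24069 features, 5757 had no read in these 8 libraries, and 7126 had enough reads over the series to be tested. The other 16943 included 11191 with a read in the 8 libraries. Of the tested features, 2482 had a mean under 10 reads in both groups and 555 of these were called different. The spread between libraries of a group was small: the common biological coefficient of variation, the spread beyond counting noise, was 9.13% in HP1_T2 and 9.42% in C.

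Of the tested leaf transcripts, 33.4% separated the selfed hairpin generation from empty-vector plants. In HP1_T2, 1231 of 7126 features were higher than in C (17.3%) and 1146 were lower (16.1%), called where edgeR's quasi-likelihood F test gave an adjusted p (Benjamini-Hochberg) under 0.05. Changes of 2-fold or more were found in 953 higher (13.4% of those tested) and 770 lower features (10.8%), and changes of 4-fold or more in 361 (5.07%) and 182 (2.55%). The median log2 change was 1.49 among higher features, with 10% of them below 0.74 and 10% above 3.32, and −1.21 among lower features, with a median SE of 0.42 and 0.32. The 4 HP1_T2 libraries did not overlap with the 4 C libraries in 982 of the 1231 higher features and 843 of the 1146 lower ones; over all tested features the libraries did not overlap, with HP1_T2 higher, in 15.9% and, with HP1_T2 lower, in 13.3%. In bulk leaf RNA, fewer cells of a type and less RNA per cell cannot be told apart.

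**Figure D1:**
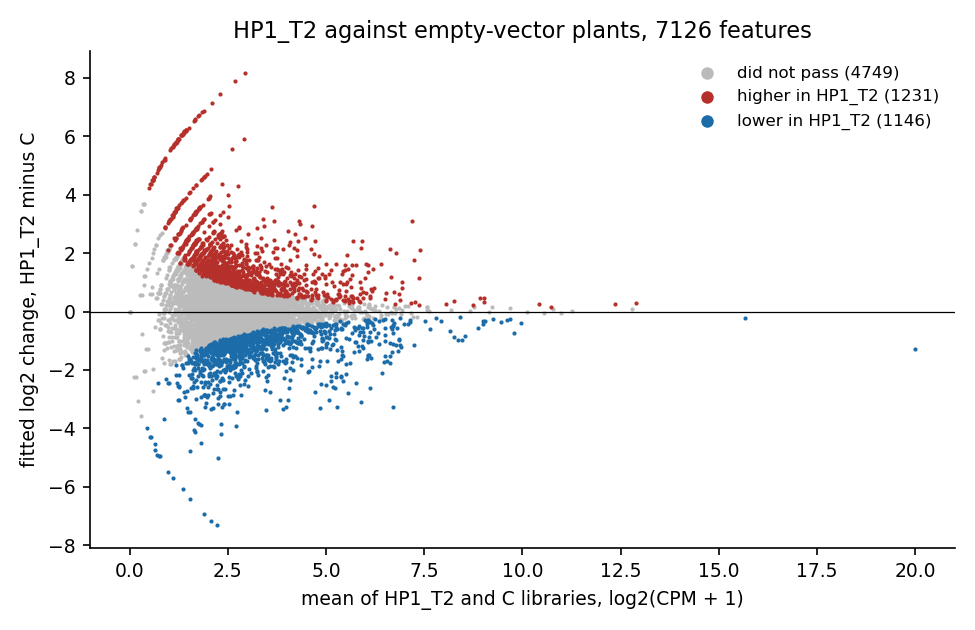
Fitted log2 change between HP1_T2 and C (vertical) against the mean level of the feature in the 8 libraries, in log2(CPM + 1) (horizontal); 1 point per tested feature, coloured by call. The 1231 higher and 1146 lower features lie on both sides of 0 at every level, and the curved rows of points at the left edge are features with few or no reads in the lower group.

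The excess of large rises over large falls lay beyond the 1000 most abundant features. Among the 1000 most abundant features, 30 were at least 4-fold higher and 32 at least 4-fold lower. Among the next 2000 features these counts were 52 and 16, and beyond rank 3000 they were 279 and 134 of 4126 tested features. The classes differ in size, so the counts are to be read against the number of features in each. C libraries had fewer reads outside the most abundant feature, and 63 higher features had no read in any C library, against 15 lower features with no read in any HP1_T2 library. A fitted fold against an empty group depends on the small count added in the fit. With such groups set at 3 reads over their 4 libraries, 338 features were at least 4-fold higher and 178 at least 4-fold lower, and the median log2 changes were 1.46 and −1.21. The part of read depth in this excess was not tested.

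The share of features called differed between classes of abundance. Of the 10 most abundant features, 3 were higher and 2 lower. Of the 90 features of rank 11 to 100, with a median of 226.5 reads in C and 443 in HP1_T2, 29 were higher and 38 lower, so that 74.4% were called. Of the next 900 features, 226 were higher and 262 lower. The share called was 34.4% among the following 2000 features and 27.4% beyond rank 3000. The median SE of the log2 change went from 0.09 for ranks 11 to 100 to 0.47 beyond rank 3000, and differences of 2-fold in the last class were near the limit of what this depth can show. Over all tested features of a class, the median log2 change stayed between −0.01 and 0.10.

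Median feature length varied little between the called sets. Higher features had a median length of 886 bases, lower features 895 and all tested features 888. The longest features differed more: the 90th percentile was 1366 bases in the higher set, 1133 in the lower set and 1077.5 over all tested features. In 4 classes of length, of similar size, the share called higher was 17.7%, 17.2%, 15.3% and 18.9% from the shortest to the longest, and the share called lower was 15.4%, 14.3%, 16.2% and 18.5%. The longest class also had the most reads per feature, with a median of 13.9 against 8.13 in the shortest. Reads that were not unique to a feature touched a minority: under 90% of reads were unique in 12.2% of higher features, 10.7% of lower features and 9.29% of all tested ones. These features, which can be near-identical copies or the paired copies that tobacco holds from its parental genomes, cannot be told apart from each other by total reads.

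The most abundant feature, of 625 bases, was lower in HP1_T2 than in C. It took 80.7%, 79.7%, 76.0% and 78.2% of all gene reads in HP1_T2 replicates 1 to 4, and 90.5%, 90%, 88.1% and 89.0% in the C replicates. The groups did not overlap, and the means were 78.7% ± 2.04 and 89.4% ± 1.09 (SD, n = 4 each), a difference of −10.7 percentage points (two-sided exact permutation test, p = 0.0286, which is as small as groups of 4 and 4 can give; adjusted p over the 3 shares tested, 0.0429). Total RNA was sequenced, and no source here names the kind of RNA behind this feature. Replicate 3 was the lowest and replicate 1 the highest in either group, and the order of the replicate numbers was the same in 5 of 5 groups of the series. Within replicate numbers the difference lay between −12.1 and −9.79 points. The share was 84.3% ± 1.71 in WT, 76.2% ± 1.87 in HP8_T1 and 77.9% ± 1.83 in HP1_T1 (SD, n = 4 each). WT thus lay between C and the hairpin groups, and every C library lay above every WT library.

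The feature of rank 2, 868 bases long, took 28.6%, 27.9%, 30.01% and 29.4% of the remaining reads in HP1_T2, and 30.8%, 30.4%, 33.0% and 32.2% in C. Remaining reads are those outside the most abundant feature. Every HP1_T2 library lay below every C library, by a difference in means of −2.62 points (exact permutation p = 0.0286, adjusted 0.0429). Other groups differed more: the mean share was 38.3% in WT and 21.1% in HP1_T1, while HP8_T1 stood with C at 31.5%. The features past rank 1000 together had 23.1% ± 0.246 of the remaining reads in HP1_T2, against 22.7% ± 0.417 in C (SD, n = 4 each); these libraries overlapped (exact permutation p = 0.114, adjusted 0.114). Within replicate numbers HP1_T2 was higher in 4 of 4, by 0.300 to 0.712 points. Leaving out HP1_T2 replicate 1, 2 or 4 or C replicate 3 raised the adjusted p of both shares that passed to 0.0857.

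Among the features of rank 3 to 10, those of rank 3, 5 and 9 passed between HP1_T2 and C with TMM scaling, each by less than 0.30 on the log2 scale. The feature of rank 3 (855 bases) took 5.03%, 5.21%, 4.94% and 4.82% of the remaining reads in HP1_T2 against 3.97%, 4.08%, 3.73% and 3.70% in C, with no overlap, and its log2 change was 0.29 (SE 0.05, edgeR adjusted p 1.49e-06). At rank 5 (543 bases) the shares were 3.38%, 3.40%, 3.37% and 3.61% against 2.75%, 2.78%, 2.61% and 2.87%, again with no overlap, and its log2 change was 0.24 (SE 0.05, edgeR adjusted p 0.000191). Rank 9 rose by 0.14 (SE 0.06, edgeR adjusted p 0.0420). Ranks 4, 6, 7, 8 and 10 had log2 changes from −0.05 to 0.10 with adjusted p from 0.176 to 0.686 in the same test; with library totals all 5 passed as rises, and ranks 4 and 10 passed under some further scalings too.

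**Figure D2:**
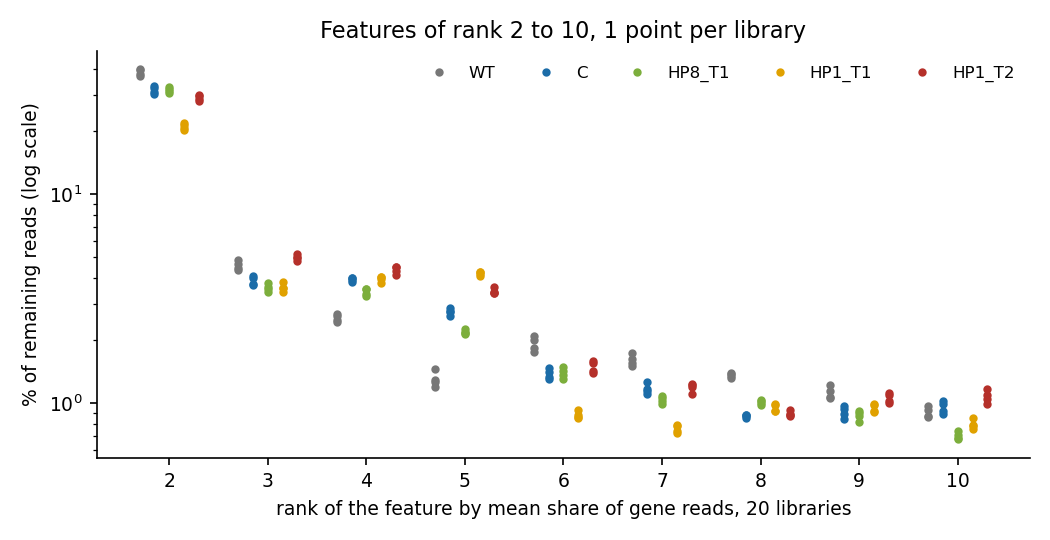
Share of the remaining reads (vertical, log scale) taken by the features of rank 2 to 10 (horizontal), 1 point per library and 1 colour per group. At ranks 6 and 7 the HP1_T1 libraries lie lowest, while the HP1_T2 libraries lie near those of C; at ranks 3 and 9 the HP1_T1 libraries lie nearer to those of C.

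Set against the parent generation, 9 of these 10 features were higher in HP1_T2 than in HP1_T1 with TMM scaling. On the scale of shares, HP1_T1 lay nearer to C than HP1_T2 did at rank 3 (3.59% in HP1_T1, 3.87% in C and 5% in HP1_T2), rank 4 (3.94%, 3.92% and 4.35%) and rank 9 (0.952%, 0.911% and 1.06%). With TMM scaling HP1_T1 lay further from C at these ranks. Its log2 changes against C were −0.50, −0.38 and −0.33, and those of HP1_T2 were 0.29, 0.07 and 0.14. By share, HP1_T1 stood apart at ranks 6 and 7. It also did so at rank 2 (21.1% in HP1_T1, 31.6% in C and 29.0% in HP1_T2) and rank 5 (4.18%, 2.75% and 3.44%). The feature of rank 6 (887 bases) took 1.495% ± 0.0978 of the remaining reads in HP1_T2, 1.38% ± 0.0760 in C and 0.879% ± 0.0327 in HP1_T1 (SD, n = 4 each). It was higher in HP1_T2 than in HP1_T1 by 1.08 on the log2 scale (edgeR adjusted p 2.66e-30). That of rank 7 (544 bases) stood at 1.20% ± 0.0590, 1.18% ± 0.0689 and 0.759% ± 0.0323 in the same order (SD, n = 4 each), with a difference between generations of 0.97 (edgeR adjusted p 2.21e-27). Rank 5 did not pass between generations (0.03, edgeR adjusted p 0.697). Ranks 2, 3, 6, 7 and 10 were higher in HP1_T2 than in HP1_T1 under all 6 scalings tried. Rank 8 turned to −0.15 with library totals, and rank 5 turned to −0.33 with library totals and −0.28 with totals outside the most abundant feature.

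Nta#S33578631, of 1005 bases, was the feature with the largest rise among those that met the rule for naming. It stood at 41.7, 38.3, 54.9 and 50.9 CPM in HP1_T2 replicates 1 to 4, where CPM is the read count scaled by the TMM-adjusted size of the library, and had 3, 5, 10 and 4 reads in the C libraries. Every HP1_T2 library lay far above every C library. Its level was 46.5 ± 7.76 CPM in HP1_T2 against 3.64 ± 1.70 in C (SD, n = 4 each). The fitted log2 change was 3.61 (SE 0.21, edgeR adjusted p 3.71e-28), or 12.2-fold, in 4 of 4 libraries. HP1_T1 stood at 53.3 ± 2.24 CPM, and HP1_T2 did not pass a test against it with TMM scaling (log2 difference −0.20, SE 0.10, edgeR adjusted p 0.100). That verdict depends on the scaling. Over all tested features, the median difference between the generations was −0.005 with TMM and −0.31 with totals outside the most abundant feature. HP8_T1 was far higher at 411.6 ± 23.2 CPM, and WT lowest at 1.53 ± 0.362 CPM (SD, n = 4 each). In order of level, the groups ran HP8_T1, HP1_T1, HP1_T2, C and WT, and only HP1_T1 and HP1_T2 overlapped as neighbours.

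Nta#S45485824, of 929 bases, had 45, 64, 57 and 62 reads in HP1_T2 and 3, 4, 2 and 1 in C. No WT library had a read of it. Its level was 20.8 ± 2.28 CPM in HP1_T2, 15.4 ± 2.21 in HP1_T1, 12.0 ± 1.63 in HP8_T1 and 1.76 ± 0.969 in C (SD, n = 4 each). All hairpin libraries lay above all C libraries, and HP1_T2 and HP1_T1 libraries overlapped. The log2 change against C was 3.57 in HP1_T2 (SE 0.33, edgeR adjusted p 2.31e-16), beside 3.14 in HP1_T1 and 2.78 in HP8_T1 against the same C libraries. Tested directly with TMM scaling, HP1_T2 was higher than HP1_T1 by 0.44 (SE 0.16, edgeR adjusted p 0.0258). Differences between the generations in the named features were not examined under other scalings.

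Nta#S33578059, of 421 bases, had 16, 7, 8 and 25 reads in HP1_T2 and 50, 95, 91 and 62 in C. The groups did not overlap, and the levels were 5.25 ± 3.31 CPM in HP1_T2 against 50.2 ± 9.59 in C (SD, n = 4 each), a log2 change of −3.29 (SE 0.21, edgeR adjusted p 1.07e-25). WT stood with C at 47.6 ± 5.47 CPM, while HP8_T1 had 21.6 ± 3.81 and HP1_T1 16.6 ± 2.87 (SD, n = 4 each). HP1_T2 was also below its parent generation (log2 difference −1.70, SE 0.22, edgeR adjusted p 9.19e-10). Over the 20 libraries, 51.4% of the reads of this feature were unique to it, so its total count can include reads of a near-identical sequence and is uncertain. Unique reads alone were 23 in the 4 HP1_T2 libraries and 174 in the 4 C libraries, and gave a log2 change of −3.79.

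Nta#S45496119, of 877 bases, had 42, 48, 62 and 58 reads in HP1_T2 and 249, 287, 278 and 267 in C, all of them unique. Its level was 19.2 ± 3.33 CPM in HP1_T2 against 186.4 ± 20.04 in C (SD, n = 4 each), a log2 change of −3.27 (SE 0.11, edgeR adjusted p 1.13e-44). The levels fell from the controls to the T1 groups and again to HP1_T2: WT had 167.9 ± 14.6 CPM, HP8_T1 52.9 ± 4.70 and HP1_T1 41.0 ± 3.17 (SD, n = 4 each). C and WT libraries overlapped, and every HP1_T2 library lay below every library of the other groups. The difference from HP1_T1 was −1.10 (SE 0.12, edgeR adjusted p 3.13e-12). Passing the threshold and not overlapping with C were conditions for naming these 4 features, so neither is further support.

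**Figure D3:**
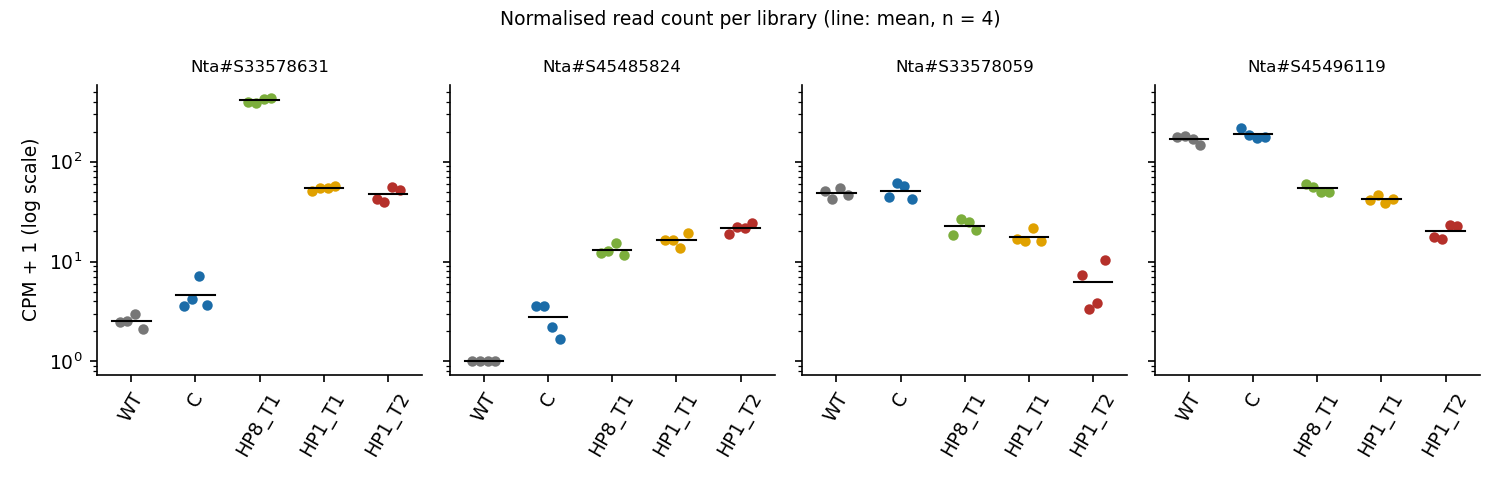
Normalised read count (CPM + 1, log scale) of the 4 named features in every library, by group, with the mean of 4 libraries as a line. The features on the left are high in all 12 hairpin libraries and low in C and WT; those on the right step down from C and WT to the T1 groups and are lowest in HP1_T2.

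Reads on 1 side of the comparison alone were rare. In 6 features the C libraries had 0 reads while each HP1_T2 library had at least 10, and in 0 features was it the other way round. The 6 features were 627 to 928 bases long and had 58 to 144 reads over the 4 HP1_T2 libraries, which put HP1_T2 at least 10.3-fold to 25.7-fold higher than C set at 3 reads over its 4 libraries. The feature of 846 bases had 144 reads in HP1_T2, 345 in HP1_T1, 324 in HP8_T1 and 3 in WT. The feature of 627 bases had 88, 81 and 278 reads in the hairpin groups in the same order and 0 in WT. The feature of 873 bases had 192 reads in HP1_T1, 83 in HP8_T1 and 9 in WT, and that of 928 bases had 72 reads in HP1_T2, 41 in HP1_T1, 38 in HP8_T1 and 3 in WT. The remaining features did not separate HP8_T1 from WT as clearly: that of 871 bases had 60 reads in HP1_T1, 35 in HP8_T1 and 19 in WT, and that of 761 bases 33, 14 and 7, where the summed TMM-scaled library of WT was smaller than that of HP8_T1. Outside the most abundant feature, a library held 258725 ± 41066 reads in C and 456949 ± 32987 in HP1_T2 (SD, n = 4 for either), so a feature at the same level had fewer reads in C, and the part of depth in these counts was not tested.

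Features called higher in HP1_T2 took 22.8%, 23.02%, 22.3% and 22.6% of the remaining reads in the HP1_T2 libraries and 14.2%, 14.4%, 13.6% and 13.9% in the C libraries. The lower features, without the 2 most abundant ones, took 11.4%, 11.5%, 11.5% and 11.5% in HP1_T2 and 19.5%, 19.5%, 19.1% and 19.1% in C. These sets were chosen on the same libraries, so the gap between HP1_T2 and C is a description. In the other groups, whose libraries shared the filter, scaling and spread of the fit, the higher set took 23.3% ± 0.372 in HP1_T1, 20.2% ± 0.302 in HP8_T1 and 12.4% ± 0.268 in WT (SD, n = 4 each). The lower set took 13.6% ± 0.0663, 12.0% ± 0.108 and 22.02% ± 0.356 in the same order. T1 hairpin libraries lay on the side of HP1_T2 for either set, and WT lay on the side of C. With sets called from the 8 HP1_T2 and C libraries alone, the 797 higher features took 20.6% ± 0.321 in HP1_T1, 17.9% ± 0.257 in HP8_T1 and 10.6% ± 0.179 in WT. The 815 lower features outside the 2 most abundant took 13.5% ± 0.0748, 12.0% ± 0.111 and 21.4% ± 0.346 (SD, n = 4 each).

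**Figure D4:**
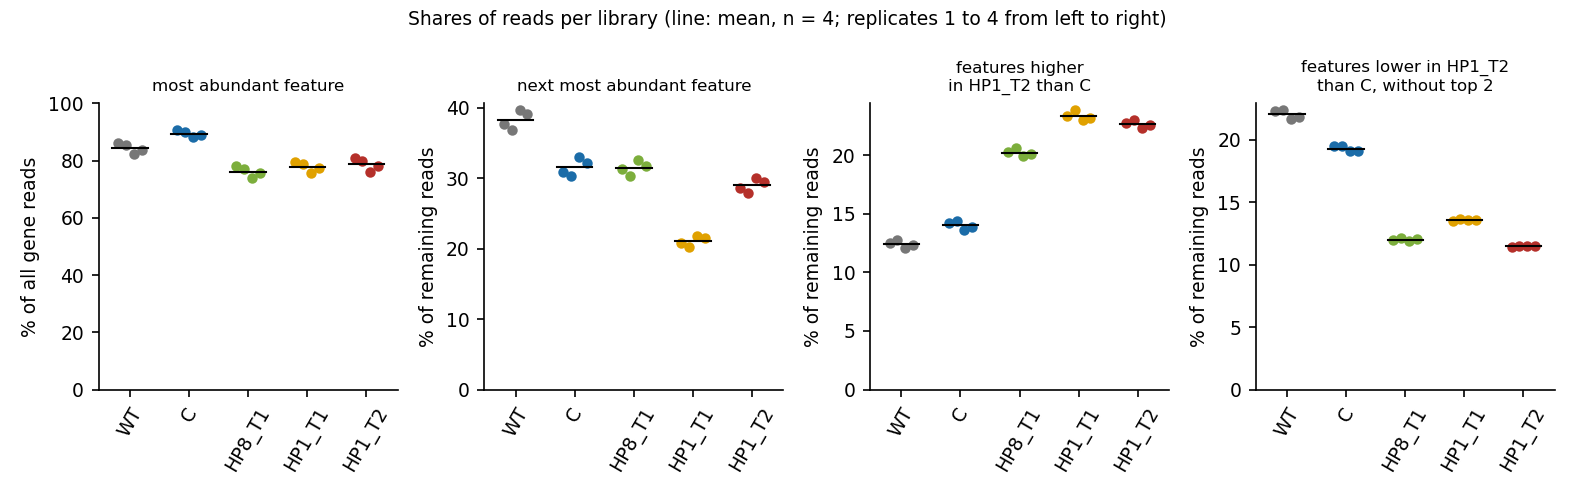
Share of reads per library (vertical, percent) in the 5 groups for the most abundant feature, the next most abundant feature, the 1231 features higher in HP1_T2 than C and the lower features without the 2 most abundant ones; lines are means of 4 libraries. In the panels of the called sets, the 3 hairpin groups lie together, apart from C and WT.

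Close to 1 in 2 of the called features were called in the same direction in hairpin T1 plants against wild type. The contrast of HP1_T1 with WT uses none of the HP1_T2 and C libraries, although all 20 libraries shared the filter, the scaling and the spread of 1 fit. Of the 1231 features higher in HP1_T2 than in C, 574 were called higher in HP1_T1 than in WT, which is 46.6% against 30% of all tested features, and 161 were called lower (13.1% against 24.3%). Their median log2 change in HP1_T1 against WT was 0.65, against 0.17 for all tested features. Of the 1146 lower features, 550 were called lower in HP1_T1 than in WT (48.0% against 24.3%) and 191 higher (16.7% against 30%), with a median of −0.53. Counted from the other side, the shared features were 26.9% of all rises and 31.7% of all falls in HP1_T1 against WT. In separate fits of the 8 libraries of each comparison, with 3487 features tested in both, 356 of 689 higher features were called higher in HP1_T1 than in WT (51.7% against 29.8% of those tested) and 98 lower. Of 782 lower features, 440 were called lower (56.3% against 30.97%) and 113 higher.

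The other hairpin line gave shares of similar size. In HP8_T1 against WT, 592 of the 1231 higher features were called higher (48.1% against 29.4% of all tested) and 145 lower. Of the 1146 lower features, 599 were called lower (52.3% against 25.2%) and 162 higher. The medians were 0.74 and −0.67, against 0.14 for all tested features. HP1_T1 and HP8_T1 were compared with the same WT libraries, so these values stand side by side and do not add to each other. The shares moved when both comparisons were rescaled, which also changed the sets. For HP1_T1 against WT with totals outside the most abundant feature, 79.9% of higher features were called higher against 68.5% of all tested, and 27.2% of lower ones lower against 9.11%. With library totals they were 85.1% against 80.2% and 31.9% against 5.78%. They lay above the share of all tested features under each of the 6 scalings.

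**Figure D5:**
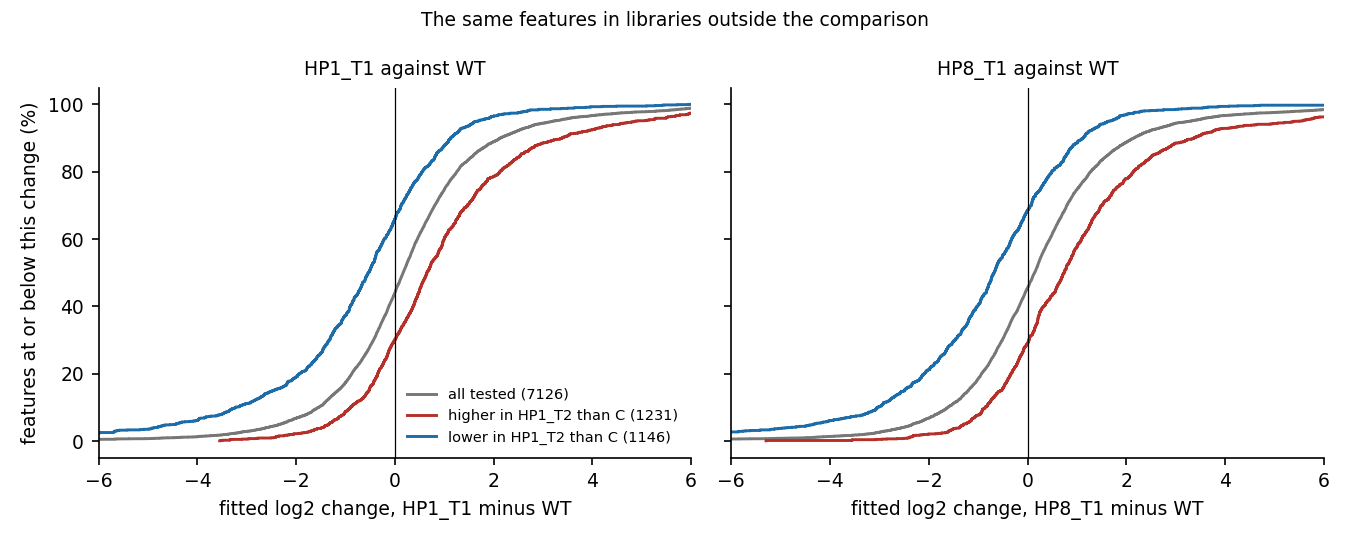
Cumulative share of features (vertical, percent) by fitted log2 change in HP1_T1 against WT and HP8_T1 against WT (horizontal), for all tested features and for those called higher or lower in HP1_T2 than C. The curve of the higher set lies to the right of that of all features and the curve of the lower set to the left, with medians of 0.65 and −0.53 in HP1_T1 against WT.

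By level, most higher features placed the T1 hairpin plants nearer to HP1_T2 and wild type nearer to C. On the log2(CPM + 1) scale, HP1_T1 was nearer to HP1_T2 than to C in 867 of the 1231 higher features (70.4%), and HP8_T1 in 872 (70.8%). WT was nearer to C in 760 (61.7%). Over the 6 scalings these counts ranged from 867 to 1160, from 864 to 1117 and from 760 to 1047, so the majority was the same under each. Among the 361 features at least 4-fold higher, HP1_T1 was nearer to HP1_T2 in 298. These features were chosen because HP1_T2 and C differ, and the same counts were not made over all tested features. Whether the shares exceed those of tested features in general was thus not tested.

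The lower features were less settled. HP1_T1 was nearer to HP1_T2 than to C in 753 of 1146 (65.7%), HP8_T1 in 778 (67.9%), and WT was nearer to C in 733 (64.0%). Over the scalings, these counts ranged from 517 to 753, from 585 to 782 and from 439 to 733, so that the majority turned for HP1_T1 and for WT under some of them. Among the 182 features at least 4-fold lower, HP1_T1 was nearer to HP1_T2 in 88 and WT nearer to C in 145 with TMM scaling. For the lower features too, no such count over all tested features was made.

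The number of features called against C in T1 and T2 plants can be set side by side, with the limit that all use the same C libraries. These counts are from the fit with TMM scaling. Against C, 1412 features were higher (19.8%) and 1266 lower (17.8%) in HP1_T1, 37.6% in all. In HP8_T1 these were 1555 (21.8%) and 1387 (19.5%), 41.3% in all, and in HP1_T2 they were 1231 and 1146 (33.4%). Mean reads per library outside the most abundant feature ran in the same order: 573815 in HP8_T1, 543794 in HP1_T1 and 456949 in HP1_T2. Whether the counts of calls differ beyond chance was not tested, nor was the part of read depth in them, so they do not rank the groups by distance from C. The difference between the generations themselves, in which C cancels, was called in 1206 features that were higher and 1237 that were lower in HP1_T2 than in HP1_T1 (34.3%). With library totals that split was 479 (6.72%) and 2375 (33.3%), and with totals outside the most abundant feature 608 (8.53%) and 2279 (32.0%).

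Features chosen in HP8_T1 against WT, a contrast with no library of HP1_T2, HP1_T1 or C, were followed in both generations. The 2096 features higher in HP8_T1 than in WT had a median log2 change against C of 0.35 in HP1_T2 and 0.37 in HP1_T1, against 0.06 and 0.08 over all tested features. In HP1_T2 against C, 592 of them were called higher (28.2% against 17.3%) and 162 lower (7.73% against 16.1%). These are the overlaps already given for HP8_T1 against WT, counted from the other side, and are no further support. Between the generations, 309 were higher (14.7% against 16.9%) and 406 lower in HP1_T2 (19.4% against 17.4%), with a median of −0.07. The 1797 features lower in HP8_T1 than in WT had medians of −0.33 and −0.40 against C. In HP1_T2 against C, 599 of them were called lower (33.3% against 16.1%) and 145 higher (8.07% against 17.3%), again the overlaps already given. Between the generations, 440 of them were higher in HP1_T2 (24.5% against 16.9%) and 308 lower (17.1% against 17.4%), with a median of 0.09. These counts are from the fit with TMM scaling.

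Few features set HP1_T2 apart from every other group. All 4 HP1_T2 libraries lay above the other 16 libraries in 1.61% of tested features and below them in 58 (0.814%). Those above made up 8.20% of the features called higher than C, and those below 4.89% of the features called lower. Lying outside all other libraries includes not overlapping with C, so these larger shares follow in part from the selection. The same count was not made for the other groups.

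How libraries were scaled changed little in HP1_T2 against C unless the most abundant feature set the scale. With TMM, DESeq2 size factors, upper quartile, totals outside the most abundant feature and totals outside the 100 most abundant features, 1231 to 1430 features were higher and 1011 to 1146 lower (20.1% and 14.2% of those tested with totals outside the most abundant feature), and the median log2 change over everything tested lay between 0.06 and 0.14. Under all 5 of these, 1231 features were higher, 1011 were lower and 0 were called in opposite directions. With library totals, 4632 were higher (65%) and 210 lower (2.95%), so that 95.7% of calls were rises against 51.8% with TMM, and the median of all tested features was 1.13. Over all 6 scalings, 210 features were lower under each, and 124 were called in opposite directions under different scalings. The feature of rank 2 then turned to a rise of 0.88 on the log2 scale, while rank 1 was lower and ranks 3, 5 and 9 were higher under all 6 scalings. Of the 6 scalings, TMM gave the fewest rises and the most falls, and that order is a property of the scaling.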

How the data were processed

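Leaf libraries were made from total RNA, extracted with lithium chloride, with the SOLiD total RNA kit, per the labels' protocols. The authors deposited read counts per UniGene sequence as total gene reads and unique gene reads, with feature lengths, per the file headers. The aligner and the build were not given in the sources used here. Total counts of HP1_T2 and C came from separate tables, whose shared WT columns were identical, and were joined by identifier. The number of other count columns left unused was 0.

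All 20 libraries were fitted with edgeR 4.0.16 in R 4.3.3: filterByExpr with a minimum count of 10, TMM factors, 1 coefficient per group with no covariate, the quasi-likelihood F test and Benjamini-Hochberg adjustment over the 7126 features tested. SEs were taken from the F statistic. DESeq2 1.42.0, given the TMM scaling, was an alternative test. Fits were tested on simulated counts of 7126 features, of which the filter kept 5556. Of 100 features changed 2-fold between HP1_T2 and C, 34% were recovered, and of 100 changed 4-fold, 76%. With a mean of 20 or more reads in either group, these were 68.6% and 98.1%. Of all calls in the simulation, 5.98% were false. That share holds for the few changed features given here, whereas 33.4% of tested features were called in the data. False calls with that many changes, or under other scalings, were not tested. Shares per library were compared with exact permutation tests in Python 3.11.15. Counting intervals and floors cover counting error only.

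Within HP1_T2 and C, all 12 pairs of libraries differed beyond counting noise (chi-square over its degrees of freedom, 1.31 to 3.01; largest p 2.27e-44), so none was counted as another deposited again. The rule for named features took, in each direction, the 2 with the largest fitted change past the threshold, without overlap between the 8 libraries and with 50 or more reads on average in whichever group was higher; 198 higher and 177 lower features met it. The 10 most abundant features were described by rank. The comparison, its members and rules were chosen with earlier results of these data known.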

Additional observations from a re-analysis of the deposited data

Results flagged for a closer look

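Of 51 groups of 4 libraries checked for a library that stands apart, 3 had one; chance gives about 1 in 20. The share of the remaining reads in the feature of rank 5 was 3.61% in HP1_T2 replicate 4, above its 3 fellows. Nta#S33578631 reached 6.16 CPM in C replicate 3, above the other C libraries and below every hairpin library. Nta#S33578059 reached 20.9 CPM in HP1_T1 replicate 3.

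Changes against C differed between the generations of line 1, tested as HP1_T2 against HP1_T1 with edgeR and TMM scaling. For named features the log2 differences were 0.44 for Nta#S45485824, −1.70 for Nta#S33578059 and −1.10 for Nta#S45496119. For the most abundant features they were 0.38 at rank 1, 0.77 at rank 2, 0.79 at rank 3, 0.45 at rank 4, 1.08 at rank 6, 0.97 at rank 7, 0.22 at rank 8, 0.47 at rank 9 and 0.76 at rank 10. With totals outside the most abundant feature, rank 1 no longer passed (0.07, adjusted p 0.344) and rank 8 stood at −0.10 (adjusted p 0.167). The named features were not examined between the generations under that scaling.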

How the results depend on the processing

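The 4 named features kept their direction and passed under all 18 alternatives each, with ranges of 3.49 to 4.69, 3.31 to 4.63, −3.79 to −2.21 and −3.33 to −2.18 in the order in which they were described. They were picked for large changes in these same libraries, so passing again is no further support. With library totals HP1_T2 had 4632 features above C and 210 below it; without the filter, with 20394 features tested, these were 2268 and 1845. With the 8 libraries alone, 3771 features were tested, 797 were higher and 817 lower. DESeq2 called 1032 and 1062. Leaving out 1 HP1_T2 or C replicate gave 1089 to 1223 higher and 1011 to 1124 lower features.

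The share of higher features also called higher in HP1_T1 than WT, and of lower features also called lower, was 85.1% and 31.9% with library totals, 79.9% and 27.2% with totals outside the most abundant feature, 62.0% and 39.4% with totals outside the 100 most abundant (47.2% and 15.7% of all tested features), 53.0% and 44.2% with the upper quartile (36.3% and 20.2%), 41.0% and 31.2% without the filter (22.8% and 15.3% of all tested), and 51.7% and 56.3% in separate fits of the 8 libraries of each comparison, added after seeing the data; with 1 replicate left out it was 46.1% to 48.1% and 48.0% to 49.9%. The cause was not tested.

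The difference in the share of the most abundant feature ranged from −11.4 to −9.84 points with 1 replicate left out, that of the next feature from −3.03 to −2.16 and that of features beyond the 1000 most abundant from 0.257 to 0.562. Paired by replicate number, as a replicate block, the differences of −10.7 and −2.62 points had an exact permutation p of 0.125, the smallest that 4 pairs allow. Across features, deviations of libraries with the same number had correlations of −0.01 to 0.03, with 1 of 4 C libraries closest to its own number. The most abundant features did move with the number: the order of the numbers was the same in 5 of 5 groups for the shares at ranks 1 and 2 and for the TMM factor. The labels do not say what a number marks. The replicate block in the fit gave 1255 higher and 1164 lower features, and changed no call of a named feature.

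Depth outside the most abundant feature limits what can be seen: beyond rank 3000 the median feature had 4.25 reads per C library.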
